A study of Mus musculus with 2 samples.

Results

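The genes that copy DNA were examined in C2C12 cells, a line of mouse myoblasts. By the labels it goes back to C3H mice, from thigh muscle that had been crushed. The 50 genes were chosen by name, from the origin recognition complex to the enzymes that supply deoxynucleotides, and they stand among 14198 annotated genes with a read in either library. Total RNA had been read as long reads in 2 libraries, labelled biological replicates 1 and 2 of the same group. The labels give no treatment, no age, no differentiation state and no sequencing platform, so the comparisons below set replicate 1 against replicate 2 or the replication genes against all genes, and they compare 2 libraries rather than conditions.

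Before S phase, the origin recognition complex, Cdc6 and Cdt1 load the MCM2-7 helicase onto DNA. Kinases then recruit Cdc45 and GINS to switch the helicase on, DNA polymerase alpha with primase lays primers, and polymerases delta and epsilon extend them on the sliding clamp PCNA. C2C12 myoblasts divide in growth medium and leave the cell cycle when they fuse into myotubes. Many genes of this machinery are known targets of E2F transcription factors, which peak at the start of S phase.

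Annotated genes held 773408 reads in replicate 1 and 722647 in replicate 2. Levels are given as counts scaled to 1000000 of these reads per library (CPM), so that 3 reads make 3.88 and 4.15 CPM. A long read is counted once whatever its length. Where levels of different genes are compared, the length of the most used annotated transcript is therefore given, or a length-scaled level, which is the reads divided by that length and scaled to the same total in each library. All 5 myoblast markers were read in both libraries, with a summed level of 1903 and 2245 CPM in replicates 1 and 2. The libraries stood apart on 2 of these 5 markers, in opposite directions, by the two-sided exact binomial test adjusted over all genes. That test called 3.98% of all 8940 genes tested. Myf5, a myogenic transcription factor, had 215 reads in replicate 1 and 60 in replicate 2 (log2 ratio 1.73, adjusted p = 1.05e-16), and Des, the muscle intermediate filament protein desmin, had 881 and 1187 (log2 ratio -0.53, adjusted p = 5.84e-14). Whether this difference bears on the replication genes was not tested. The 5 markers of differentiating muscle summed to 1637 and 1701 CPM, and the proliferation markers Mki67 and Top2a to 110 and 120 CPM. Of the markers of other cell types, Ptprc, Epcam and Adipoq were at 0 in both libraries, and Pecam1 had 0 reads in replicate 1 and 1 in replicate 2. Fewer dividing cells and less RNA per cell cannot be told apart in such bulk libraries. Intervals and the p-values of the exact binomial and Fisher's exact tests below cover counting error only.

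Every replication gene was read in both libraries. The 50 genes took 3670 reads in replicate 1 and 3798 in replicate 2, which are 0.475% and 0.526% of the annotated-gene reads, and their summed level was 5000 ± 361 CPM (SD, n = 2). Their median level was 67.7 CPM, against 18 CPM over the 12199 protein-coding genes with a read in either library. Of the 50, 45 lay above that median and 7 in the top 10% of those genes. The 5 below it were Gins1, Mcm10, Pole, Pola1 and Orc1, which together had 39 and 26 reads. A single gene, Rrm2, supplied 20.6% and 21.7% of all replication gene reads.

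**Figure D1:**
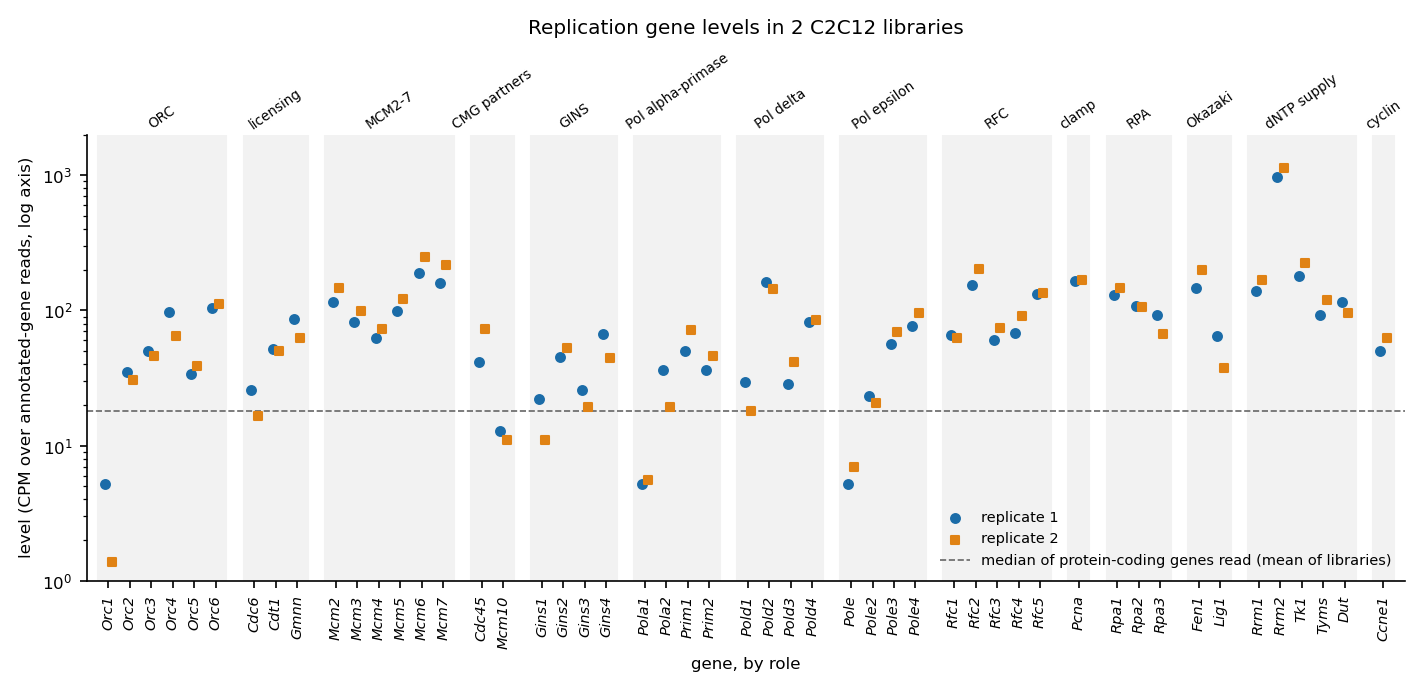
Level of each of the 50 replication genes in replicate 1 (circles) and replicate 2 (squares), in CPM on a log axis, grouped by role; the dashed line is the median of 18 CPM over protein-coding genes read. Rrm2 stands highest, at 976 and 1139 CPM, and Orc1, Pola1 and Pole lowest.

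No replication gene passed the test between the libraries. Of the 47 genes with at least 10 reads summed, the two-sided exact binomial test with Benjamini-Hochberg adjustment over all genes called 0, while it called 3.98% of all 8940 genes tested. At an unadjusted p under 0.05 there were 8 of the 47, and 13.9% of all genes tested. The exact test of edgeR called 0 of the 47, had 0 of them at an unadjusted p under 0.05, and called 0.134% of all genes tested. That test used a dispersion that varies with level, estimated from the same 2 libraries. A separate estimate common to all genes, not used in the test, gave a biological coefficient of variation of 0.136. The differences tested are thus part of the spread they are tested against, and the edgeR count says nothing about the absence of a difference. The median log2 ratio of replicate 1 over replicate 2 was -0.18 for the 47 genes and -0.06 for all genes tested. It was below 0 in 28 of the 47, and in 54.7% of all genes tested. Orc1, Pola1 and Pole had under 10 reads in all and were not tested.

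Orc6 and Orc4 had the most reads of the origin recognition complex. Orc6, the smallest subunit, had 81 reads in replicate 1 and 80 in replicate 2, a level of 108 ± 4 CPM (SD, n = 2). Orc4, an ATPase-fold core subunit, had 75 and 47 reads and a log2 ratio of 0.57 with a counting SE of 0.27 (exact binomial test, adjusted p = 0.30). Orc1, an ATPase subunit that is removed from chromatin in cycling mammalian cells, had 4 and 1 reads. The other core subunits lay between these, at 39 and 33 reads for Orc3, 26 and 28 for Orc5, and 27 and 22 for Orc2. Of all reads of the complex, Orc6 thus took 32.1% and 37.9%, with Wilson 95% intervals of 26.7 to 38.1% and 31.6 to 44.6%, and Orc1 took 1.59% and 0.474%. The Orc6 transcript, of 1287 bases, is shorter than that of Orc1, of 3014 bases. Scaled by length, Orc6 still came first and Orc1 last.

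Among the loading factors, Gmnn, the inhibitor of Cdt1, had the most reads. It had 67 reads in replicate 1 and 45 in replicate 2, against 40 and 36 for Cdt1, which brings the helicase to origins, and 20 and 12 for Cdc6, the ATPase that joins the origin complex. The Gmnn transcript is the shortest of the 3, at 963 bases, and its length-scaled level of 107 was still above those of Cdt1, at 32.1, and Cdc6, at 6.33. None of the 3 passed the test between the libraries.

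The helicase subunits formed the most read complex, with 548 reads in replicate 1 and 651 in replicate 2 (805 ± 136 CPM, SD, n = 2). Mcm6 had 146 and 178 reads and Mcm7 had 123 and 156. Mcm2 followed with 90 and 105, Mcm5 with 77 and 88, Mcm3 with 64 and 71, and Mcm4 with 48 and 53. The order of the 6 subunits was thus the same in both libraries, although they enter the ring in equal numbers. Mcm6 took 26.6% and 27.3% of the complex's reads and Mcm4 took 8.76% and 8.14%, where equal subunits would each take 16.7%. Their transcripts run from 2910 to 3589 bases, and the length-scaled shares were 29% for Mcm6 and 7.29% for Mcm4. All 6 were lower in replicate 1 than in replicate 2, with log2 ratios from -0.24 (Mcm4) to -0.44 (Mcm7). This sign held under every scaling and filter tried, but none of the 6 passed the test. For Mcm7 the exact binomial test gave an adjusted p of 0.16.

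**Figure D2:**
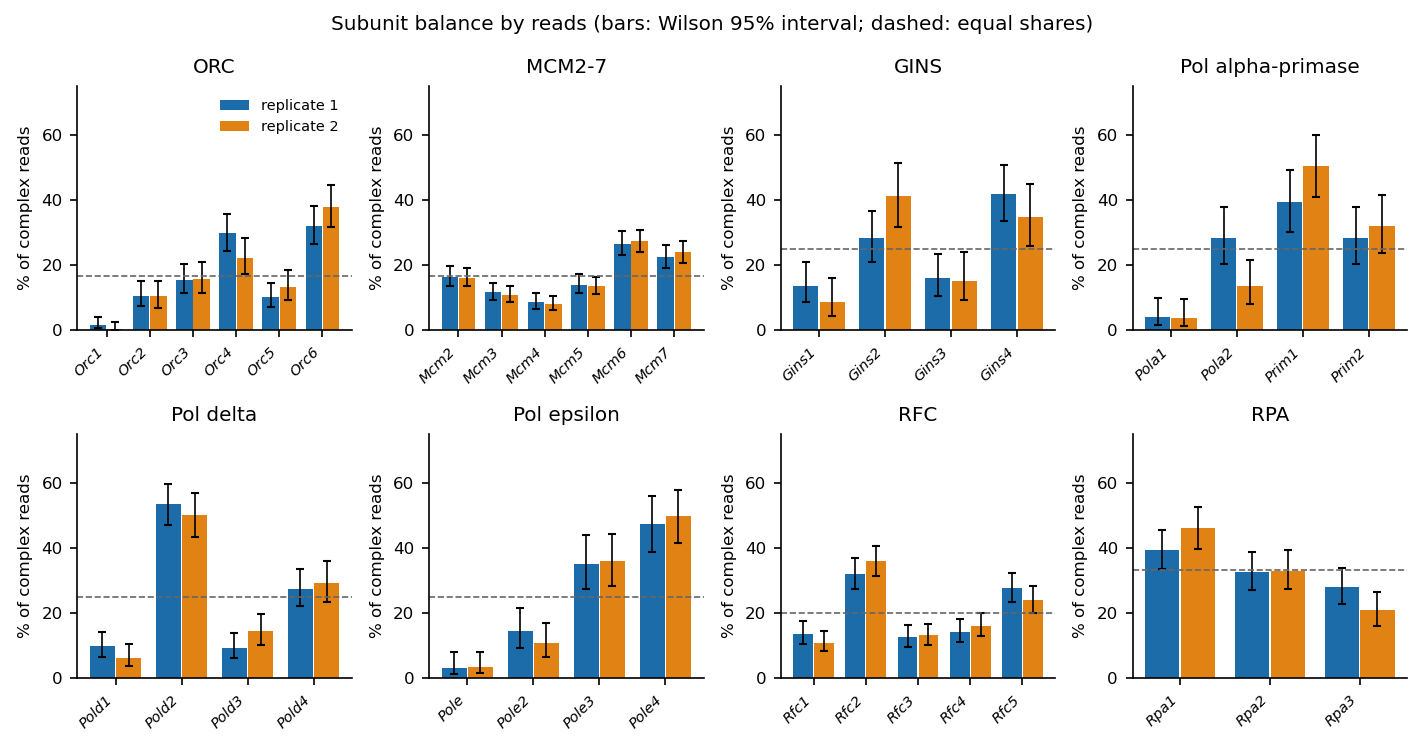
Share of a complex's reads taken by each subunit, in percent, in replicate 1 (blue) and replicate 2 (orange), with Wilson 95% intervals; the dashed line marks equal shares. Mcm6 reaches 26.6% and 27.3%, and Pold2 53.4% and 50%, while Orc1, Pola1 and Pole stay near the axis.

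Of the activators that complete the helicase, Cdc45 had 32 reads in replicate 1 and 53 in replicate 2, a log2 ratio of -0.82 with a counting SE of 0.32 (exact binomial test, adjusted p = 0.16). Mcm10, which acts as the helicase starts to move, had 10 and 8 reads. The GINS complex was read unevenly. Gins4 had 52 and 32 reads, Gins2 had 35 and 38, Gins3 had 20 and 14, and Gins1 had 17 and 8. By reads, Gins4 was thus first in replicate 1 and Gins2 in replicate 2, with overlapping intervals for both subunits. The Gins2 transcript has 3900 bases, that of Gins4 1349 and that of Gins1 1087. Scaled by length, Gins4 was first in both libraries, at 66.7 and 47.1, against 15.5 and 19.4 for Gins2. Gins1, last by reads, had length-scaled levels of 27.0 and 14.6.

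The catalytic subunits of the replicative polymerases had few reads. Pola1, the catalytic subunit of polymerase alpha, had 4 reads in each library. Pole, that of the leading-strand polymerase epsilon, had 4 and 5. Pold1, that of polymerase delta, which copies the lagging strand, had 23 and 13. Together these 3 genes had 31 and 22 reads, against 427 and 428 for the other 9 subunits of the 3 enzymes. Low counts were not confined to these 3 genes, as Pold3 had 22 and 30 reads and Pole2 had 18 and 15. The transcripts of the catalytic subunits are the longest of each enzyme, at 5346 bases for Pola1, 7163 for Pole and 3454 for Pold1. In their length-scaled levels, of 1.39, 1.18 and 9.5, these subunits came last in each enzyme. For comparison, the median level of protein-coding genes whose main transcript exceeds 4000 bases was 15.5 CPM, against 43.7 CPM for those of up to 2000 bases. How far transcript length itself sets these counts was not tested.

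The other subunits of these enzymes carried most of their reads. Prim1, the catalytic primase subunit that makes the RNA primer, had 39 reads in replicate 1 and 52 in replicate 2, and its partner Prim2 had 28 and 33. Pola2, the accessory subunit of polymerase alpha, had 28 and 14, and its share of the enzyme's reads was 28.3% and 13.6%, with intervals that overlap between 20.4 and 21.5%. In polymerase delta, Pold2, the subunit that bridges the enzyme, had 125 and 104 reads, Pold4, the smallest subunit, had 64 and 61, and Pold3, which carries a PCNA-binding motif, had 22 and 30. Scaled by length, Pold4 rather than Pold2 came first, with 53.9% against 38.5% of the enzyme. In polymerase epsilon, the histone-fold subunits Pole4, with 59 and 69 reads, and Pole3, with 44 and 50, stood above Pole2, with 18 and 15.

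Of the clamp and its loader, Pcna had 127 reads in replicate 1 and 122 in replicate 2 (167 ± 3 CPM, SD, n = 2). The loader subunits were led by Rfc2, with 119 and 147 reads, and Rfc5, with 103 and 98. Rfc4 had 53 and 66, Rfc3 had 47 and 54, and Rfc1, the large subunit that opens the clamp, had 51 and 45. The Rfc2 transcript is long, at 4995 bases, and scaled by length Rfc4 came first with 30.1% of the complex. In the single-strand binding protein RPA, Rpa1, its main DNA-binding subunit, had 100 and 106 reads, Rpa2 had 83 and 76, and Rpa3 had 71 and 48. This order turned round when scaled by length, since the Rpa1 transcript has 5077 bases and that of Rpa3 has 670. These lengths, like that of Rfc2, are annotated ones, and how far the single reads reached was not seen.

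Across the 8 complexes with 3 or more subunits, the intervals of all 36 subunits overlapped between the libraries. At the same time, 12 subunits, with at least 1 in each complex, had both intervals above an equal share, and 14 had both below it. The subunits of a complex thus differed from each other by more than counting error. The overlap between the libraries is no result about these genes, since few reads give wide intervals and no such count was made over other genes. Fen1 and Lig1, whose intervals did not overlap, are a pair and so outside the 8 complexes. The order within a complex rests on reads per gene, and it changed with length scaling at the top of 3 complexes, polymerase delta, RFC and RPA.

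Fen1 and Lig1, which finish Okazaki fragments by cutting the flap and sealing the nick, had ratios of opposite sign between the libraries. Fen1 had 113 reads in replicate 1 and 144 in replicate 2, and Lig1 had 50 and 27. Their log2 ratios were -0.45 with a counting SE of 0.18 and 0.78 with a counting SE of 0.34, and neither passed the test (exact binomial test, adjusted p = 0.18 and 0.23). On reads of complete models alone, the ratio of Lig1 was 0.23. Intervals of the Fen1 share of the pair did not overlap, at 69.3% (61.9 to 75.9%) in replicate 1 and 84.2% (78.0 to 88.9%) in replicate 2. These shares include Lig1 reads on shortened models, 32 and 12. On complete models Lig1 had 18 and 15 reads, and Fen1 had 106 and 140. No such count was made over other pairs of genes, so the missing overlap is no result about this pair.

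Nucleotide supply held the most read gene. Rrm2, the small subunit of ribonucleotide reductase whose protein accumulates in S phase, had 755 reads in replicate 1 and 823 in replicate 2, a level of 1058 ± 115 CPM (SD, n = 2) at chr12:24708241-24714146. It stood above 99.1% of the protein-coding genes read. Rrm1, the large subunit of the same enzyme, had 107 and 122 reads. Scaled by length, Rrm2 was at 671 and Rrm1 at 53.5. Between the libraries, the log2 ratio of Rrm2 was -0.22 with a counting SE of 0.07, and its adjusted p of 0.055 in the exact binomial test was the lowest of the 47. When only genes with at least 50 reads were tested, Rrm2 was called with an adjusted p of 0.032, and over all alternatives its adjusted p ran from 0.032 to 1, the exact test of edgeR included. Tk1, which salvages thymidine, had 139 and 162 reads, and Tyms, which makes dTMP, had 72 and 86. Dut, which destroys dUTP, had 90 and 69. Ccne1, the cyclin that drives entry into S phase, had 39 and 45 reads.

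Further genes of replication, in a list of 40 with roles at the fork, in chromatin assembly and in cell cycle control, had a median level of 23.1 CPM. All 40 were read in both libraries. Of the 34 tested, 0 were higher and 1 was lower in replicate 1 by the exact binomial test, where 3.98% of all genes tested were called, so the count is no result about the list. The gene called was Asf1b, a histone chaperone, with 241 reads in replicate 1 and 295 in replicate 2 (log2 ratio -0.39, adjusted p = 0.047). Next in level came Ccna2, the S-phase cyclin, with 143 and 167 reads, Rnaseh2a, which removes RNA from DNA, with 137 and 119, Slbp, which binds histone mRNA, with 92 and 103, Tipin, of the fork protection complex, with 71 and 80, and Nasp, a histone chaperone, with 64 and 72.

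Most replication gene reads ran through a whole splice chain. Complete models, which are annotated transcripts and the unannotated classes NIC (new combinations of annotated splice sites) and NNC (with a splice site not annotated), took 88.4% of the reads in replicate 1 and 90.4% in replicate 2. Over all annotated genes these shares were 84.0% and 88.3%. For main transcripts of up to 2000 bases, pooled shares were 88.5% and 89.5% in replication genes, against 89.1% and 92.7% in protein-coding genes. Above 2000 and up to 4000 bases they were 88.5% and 91.1%, against 80.1% and 86.2%. Above 4000 bases they were 87.0% and 88.8% in 6 replication genes, against 68.5% and 74.8% in 2006 protein-coding genes. Rfc1, with 17.6% and 13.3%, is not among these 6, as its most used annotated transcript has 3952 bases. The longest of the 6 add few reads. Complete models held 0 of 4 Pola1 reads in each library, and 1 of 4 and 1 of 5 Pole reads. Pola1 and Pole had no read on an annotated transcript and were placed by their longest coding transcript, while other genes without such a read were left out. Fisher's exact test of complete against other reads called 0 of 40 replication genes, with 1, Orc4, at an unadjusted p under 0.05, and it called 4.05% of all 4960 genes tested, of which 13.5% had an unadjusted p under 0.05. Of 46 replication genes with at least 20 reads, 42 had 70.3 to 100% of their reads on complete models over both libraries. Cdc45, Rfc1, Pold1 and Lig1 had less than 50%, and these 4 genes held 32.2% and 31.3% of all replication gene reads on shortened models.

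**Figure D3:**
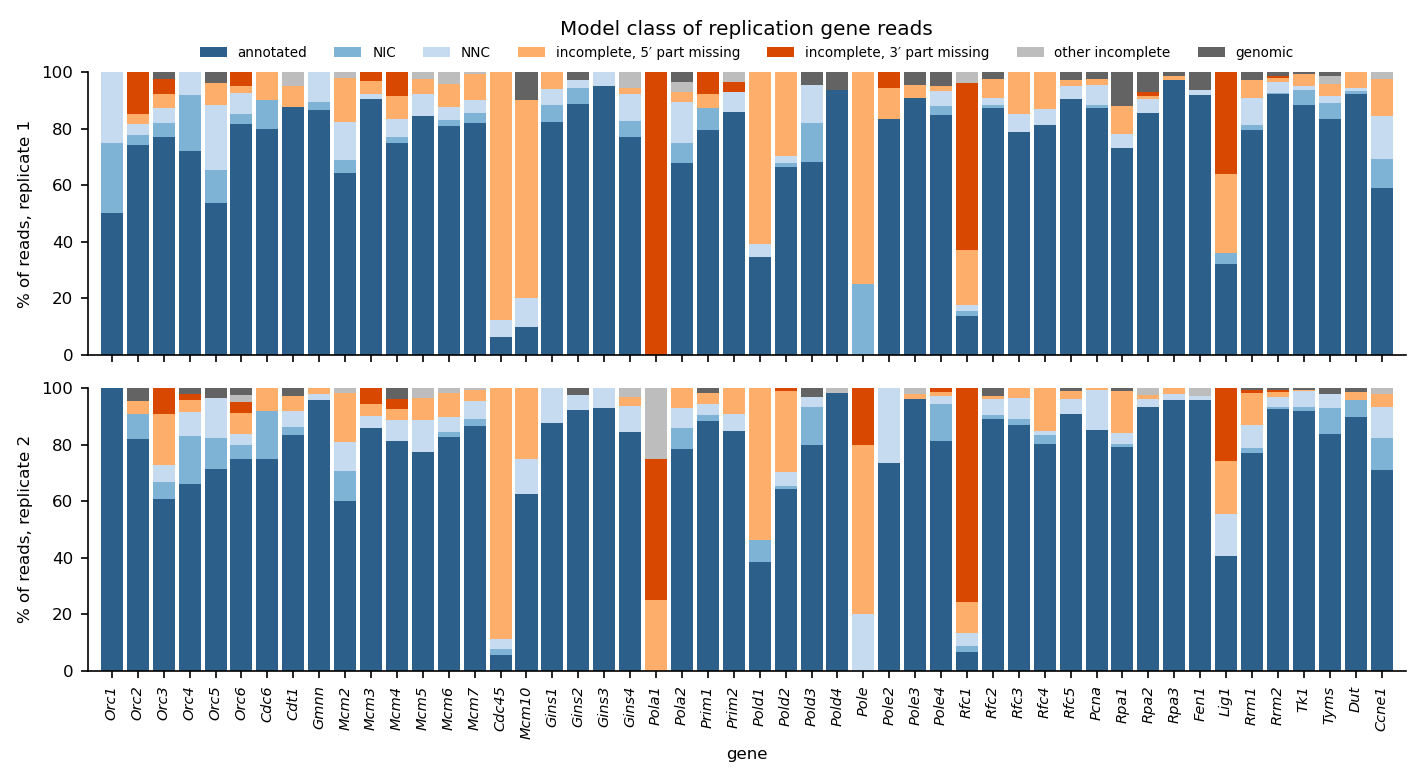
Share of each gene's reads by model class, in percent, in replicate 1 (top) and replicate 2 (bottom). Cdc45 and Pold1 are taken up by models that lack the 5′ part and Rfc1 by models that lack the 3′ part, and Pola1 and Pole rest on under 10 reads in all.

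Shortened structures were matched between the libraries by their introns. The 7 with at least 5 reads in each library lay in Pold2, Rfc1, Cdc45, Rfc4, Lig1, Pold1 and Mcm2, and they were picked out after their values were seen. In 6 of the 7, the listed end of the shortened side is an annotated exon boundary in both libraries, and the same holds for 93.9% of the 5′ ends and 88.7% of the 3′ ends of 115 unannotated or shortened structures modelled in each library. Such ends are coordinates of the models, and where the single reads began or stopped is not shown by them. In Cdc45, a model of 19 of the 20 exons of Cdc45-201 took 21 of 32 reads in replicate 1 and 42 of 53 in replicate 2 (65.6% and 79.2%). Its listed start, spliced base 288 of that transcript, is the annotated start of a shorter Cdc45 transcript and lies before the start codon at base 314, so the model spans the coding sequence. Reads on models that span an annotated coding sequence from start to stop codon with its introns, called intact here, were 71.9% and 84.9% of Cdc45 reads, while complete models were 12.5% and 11.3%. For Pold1, a model of 26 of 27 exons, with 9 and 5 reads, lacks only the first exon, and the start codon opens the second. In Pold2, a model of 10 of 11 exons had 30 and 29 reads (24% and 27.9%). Its listed start at spliced base 327 of 1646 is that of the annotated transcript Pold2-203, in the exon that holds the start codon at base 159.

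In Rfc1, the shortened end was no annotated boundary. A model that stops in exon 13 of 25 took 24 of 51 reads in replicate 1 and 25 of 45 in replicate 2 (47.1%, interval 34.1 to 60.5%, and 55.6%, interval 41.2 to 69.1%). It held 49 and 48 bases of that exon, which has 358 bases, so the end listed differed by a single base between the libraries, at chr5:65279766 and chr5:65279767 on the minus strand of mm10. Models with an intact coding sequence made up 7.84% and 2.22% of the Rfc1 reads. The exon sequence across this end is shown because of the letters that follow it. The 20 bases after the end found in replicate 1 are in capitals.

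Rfc1: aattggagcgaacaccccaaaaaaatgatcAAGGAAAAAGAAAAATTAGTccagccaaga

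Of these 20 bases 13 are A, a count that 0.396% of all 20-base windows in the main transcripts of the 50 genes reach. Whether priming within the transcript gave these ends was not tested.

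Lig1 could be read only in part against the annotation. Its complete reads lay mainly on Lig1-209, with 16 and 11 reads in 28 exons, which GENCODE M21 lists without a coding sequence. All 3 annotated Lig1 transcripts with a start and a stop codon carry a gap of a single base at chr7:13305925 on mm10, and no other gene of the 50 has an annotated gap under 10 bases. When such gaps were passed over, 16 of 50 and 12 of 27 Lig1 reads lay on models with an intact coding sequence. A model of the first 6 exons had 16 of 50 reads in replicate 1 and 6 of 27 in replicate 2 (32.0% and 22.2%), and its listed end, spliced base 618 of 3054, is the annotated end of exon 6.

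Over all 50 genes, 82.1% of the reads in replicate 1 and 84.4% in replicate 2 lay on models with an intact annotated coding sequence. Reads on transcripts that GENCODE lists as targets of nonsense-mediated decay were 3 and 4, and those on retained-intron transcripts 16 and 10. Of 14 annotated pseudogenes that aligned to 11 of the genes over at least 300 bases, Pcna-ps2 alone had reads, 5 and 3, and it is 99.2% identical to Pcna over 781 bases. Reads of Pcna could be shared between both. Unannotated antisense models over these genes had at most 3 reads in a library, over Tyms.

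A single annotated transcript dominated most replication genes. The median share of the most used transcript among complete models was 89.2% in replicate 1 and 89.6% in replicate 2, against 88.0% and 88.1% over all genes tested. Fisher's exact test of that share between the libraries called 0 of 37 replication genes, with 0 at an unadjusted p under 0.05, and 1.87% of all 4011 genes tested, of which 5.86% had an unadjusted p under 0.05. A second annotated transcript at 10% or more in both libraries was found in 5 of 43 replication genes (11.6%), against 1006 of 6091 genes (16.5%).

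Pold4 reads were divided between annotated transcripts with different starts. Pold4-202, of 3 exons, had 32 of 60 complete reads in replicate 1 and 29 of 60 in replicate 2, against 28 and 30 for Pold4-201, of 4 exons. Pold4-202 begins at chr19:4232438, downstream of the first exon of Pold4-201 and of its start codon at chr19:4232092, and is annotated with 32 residues in place of 107. About equal parts of the Pold4 reads thus lay on a transcript annotated without the start codon of the longer form, with intervals of 40.9 to 65.4% and 36.2 to 60.7% for Pold4-202. All introns of Pold4-202 are also in Pold4-201, so a Pold4-201 read without its first exon would match the introns of Pold4-202. Whether such reads are counted there was not tested.

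Dut reads also lay on annotated transcripts with different starts. Dut-201, with 162 residues, had 68 of 85 complete reads in replicate 1 and 53 of 66 in replicate 2, and Dut-202, with another first exon and 200 residues, had 15 and 9. All introns of Dut-201 are also in Dut-202, so a Dut-202 read without its first exon would match the introns of Dut-201. How far this sets the shares was not tested. Human DUT is known to make a nuclear and a longer mitochondrial form from alternative first exons.

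Fen1 and Mcm5 varied outside the coding sequence. In Fen1, the transcripts Fen1-201, Fen1-202 and Fen1-203 had 61, 29 and 14 of 106 complete reads in replicate 1 and 76, 47 and 15 of 140 in replicate 2, with different first exons and the same 380 residues. In Mcm5, Mcm5-201 had 45 of 71 reads in replicate 1 and 47 of 78 in replicate 2, a form of 16 exons had 15 and 14, and Mcm5-203 had 5 and 7, all with 734 residues.

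Orc3 had a choice of 3 bases. Orc3-201, with 715 residues, had 16 of 34 complete reads in replicate 1 and 13 of 24 in replicate 2, and Orc3-202, which lacks 3 coding bases and has 714 residues, had 14 and 7. The sequence is shown because these 3 bases, in capitals, are the difference between the proteins. They stand at coding base 1535 of Orc3-201, at the start of an exon on the minus strand of chromosome 4.

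Orc3: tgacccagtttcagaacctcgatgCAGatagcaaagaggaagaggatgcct

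**Figure D4:**
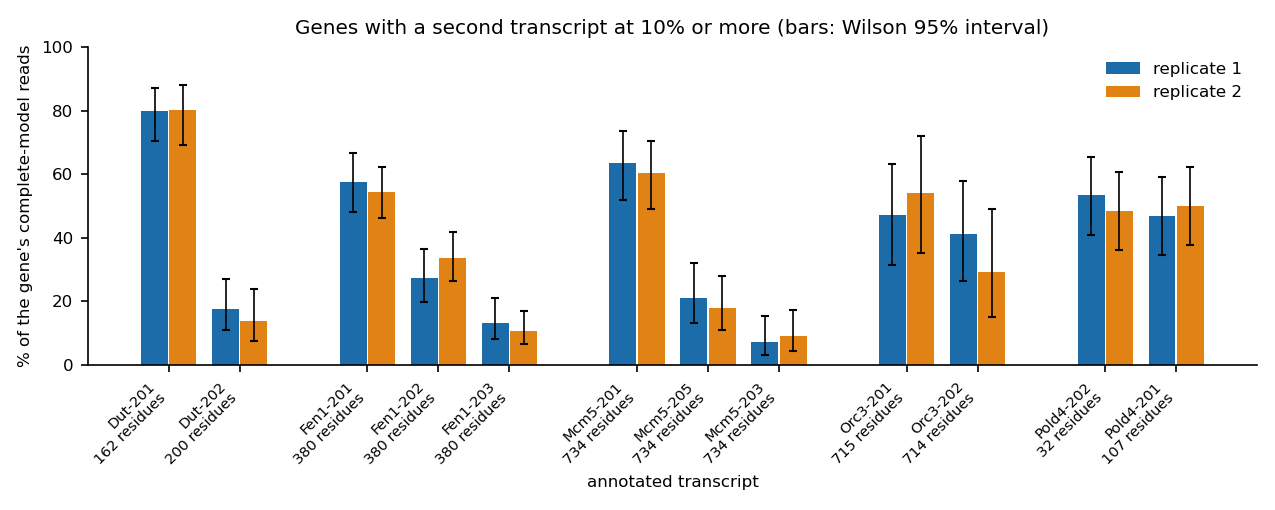
Share of the complete-model reads of each gene taken by its annotated transcripts, in percent, in replicate 1 (blue) and replicate 2 (orange), with Wilson 95% intervals and the residues each encodes. Pold4-202 takes 53.3% and 48.3%, and Dut-202 takes 17.6% and 13.6%.

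Unannotated splice forms took a minor share of the reads, as in all genes. NNC models held 4.77% of the replication gene reads in replicate 1 and 5.24% in replicate 2, against 3.50% and 4.06% of all annotated-gene reads, and NIC models held 2.34% and 2.40%, against 3.17% and 3.62%. Of 339 unannotated structures with several exons, 265 had a single read, and 10, in 9 genes, had at least 5 reads in a library. All 10 were also read in the other library. The 6 with the highest lower count lay in Rrm2, Mcm2, Pcna, Tyms, Mcm7 and Ccne1. That of Mcm2, with 7 and 8 reads, used a donor 4 bases into the annotated intron. That of Mcm7, with 4 and 5 reads, moved both ends of an intron by a few bases, which made it 1 base longer. These introns of Mcm2 and Mcm7 lie within the coding span, and the reading frame is kept in neither. In Tyms, a new combination of annotated splice sites had 4 and 7 reads.

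The other 3 structures are shown, with the bases they leave out in capitals, because those are coding bases of the annotated transcripts. In Rrm2, an acceptor 2 bases downstream of the annotated site, after the intron chr12:24710491-24711446, had 17 reads in replicate 1 and 12 in replicate 2. It leaves out 2 coding bases, AG, which repeat the preceding letters, so a shifted acceptor and a loss of 2 bases within the repeat cannot be told apart. The reading frame is not kept. In Pcna, a donor 84 bases upstream of the annotated one, with the intron chr2:132249898-132251327 on the minus strand, had 6 and 9 reads. It leaves out 84 bases from coding base 499 on, which keeps the reading frame. In Ccne1, an exon of 69 bases from coding base 103 on was skipped in 4 and 5 reads, over chr7:38103195-38106595 on the minus strand, which also keeps the frame. The sequences are spliced GENCODE M21 transcripts, in the direction of the gene.

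Rrm2: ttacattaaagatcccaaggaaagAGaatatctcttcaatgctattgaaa
Pcna: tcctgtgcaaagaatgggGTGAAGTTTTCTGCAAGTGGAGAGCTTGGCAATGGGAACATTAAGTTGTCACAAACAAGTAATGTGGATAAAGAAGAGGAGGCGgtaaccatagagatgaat
Ccne1: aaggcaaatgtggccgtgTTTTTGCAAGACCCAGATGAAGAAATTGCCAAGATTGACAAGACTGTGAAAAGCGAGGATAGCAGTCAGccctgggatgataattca

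Set against 755 and 823 reads of Rrm2, 127 and 122 of Pcna and 39 and 45 of Ccne1, these forms were minor in each gene.

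The promoters were compared for letters that the choice of the genes did not use. RefSeq promoters on GRCm38, from 250 bases before to 50 bases after the start, were available for 42 of the 50 genes. An E2F-type octamer (TTTCCCGC, TTTCGCGC, TTTGCCGC or TTTGGCGC on either strand) stood in 16 of the 42 (38.1%), against 704 of all 27025 genes of the table (2.6%) and 417 of 8526 protein-coding genes read in both libraries (4.89%). Median GC content of the window was 60.1% in the replication genes and 61.3% in the coding genes read. In the 150 bases before the start, 9 of the 42 genes (21.4%) held an octamer, against 1.44% of all genes and 2.74% of the coding genes read in both libraries. Octamers stood in Mcm3, Mcm5, Mcm6, Mcm7, Orc1, Orc3, Cdc6, Cdt1, Gins3, Pola1, Pold1, Pold3, Pole2, Pole4, Rfc3 and Lig1. Genes with an octamer had a median level of 49.4 CPM and the 26 without had 94.8 CPM. A match describes the letters alone and not a bound site. The 3 most read genes with an octamer are shown, with octamers in capitals. In Mcm6 and Mcm5, a match on each strand overlaps by 4 bases in a run of 12.

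Mcm6 promoter, chr1:128359782-128359841, minus strand: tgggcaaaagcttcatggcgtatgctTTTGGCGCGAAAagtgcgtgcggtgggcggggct
Mcm7 promoter, chr5:138172015-138172074, minus strand: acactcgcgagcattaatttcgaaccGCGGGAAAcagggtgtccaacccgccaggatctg
Mcm5 promoter, chr8:75109330-75109389, plus strand: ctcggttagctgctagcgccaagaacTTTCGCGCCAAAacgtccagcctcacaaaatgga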

How the data were processed

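Per the file headers, the authors deposited a raw read count per transcript model, with no normalisation, for models with at least 1 read, on mm10 and annotated against GENCODE M21; unannotated models carry TALON as their source. The aligner, the versions and any filters were not given in the sources used here. Levels in CPM are counts scaled to 1000000 annotated-gene reads. A gene's count here is the sum over its models. The depth was 791850 and 735077 reads in replicates 1 and 2, of which 773408 and 722647 lay on annotated genes. Shares carry Wilson 95% intervals, which cover counting error only.

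Genes with at least 10 reads summed were compared between the libraries by a two-sided exact binomial test given the annotated-gene totals, with Benjamini-Hochberg adjustment at 0.05 over all genes. Log2 ratios use an offset of 0.5 reads. Fisher's exact test compared complete against other reads (at least 20 reads in each library) and the most used transcript against other complete models (at least 20 complete-model reads in each). A quasi-likelihood fit has no residual degrees of freedom with 1 library on each side. Structures were matched by chromosome, strand and intron chain. Pseudogenes were aligned with minimap2 2.31 at an identity of at least 85%. Tests were run in Python 3.11.15 with scipy 1.17.1, and edgeR 4.0.16 and DESeq2 1.42.0 in R 4.3.3 gave other scalings and an exact test with dispersion. The exact binomial and Fisher's exact tests were each tried on simulated counts of the same depth. These counts varied by counting error alone, so the trial gives no error rate for libraries that differ by more than that.

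The 50 genes, the list of 40 further genes, the markers, the tests and the rules for naming were chosen with earlier results of these data known. All 50 genes were named, and the 6 highest of the 40. Shortened models, the intact coding sequence measure, in which annotated gaps under 10 bases were passed over, and length-scaled shares were added after values were seen, as was the check of model ends against annotated boundaries. Promoters came from RefSeq on GRCm38 and transcript sequences from GENCODE M21. Promoters of 8 genes, a genome and proteins were not used here. A further marker gene is not reported here.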

Additional observations from a re-analysis of the deposited data

How the results depend on the processing

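With no read minimum, all 50 genes were tested and 0 were called between the libraries. Fewer of the 50 were tested in the other settings. Of these, 0 were called with TMM scaling, DESeq2 size factors, complete models alone and the exact test of edgeR. The shares of all genes called are not set beside these counts, so the counts are no result about the genes. When at least 50 reads were required, 1 (Rrm2) was called, where fewer genes share the adjustment and 8.57% of 4739 genes were called. Leaving out a replicate gave a summed level of 4745 to 5256 CPM, a median level of 66.6 to 70.6 CPM, a complete-model share of 88.4 to 90.4%, 5 to 6 genes with a second transcript, and the same highest subunit in 7 to 8 of 8 complexes, Gins2 replacing Gins4 without replicate 1. The median level was 45.8 when divided by length. The complete-model share was 82.0% with the annotated class alone. With a threshold of 20%, 3 genes had a second transcript. Unannotated structures in both libraries were 48 from 1 read, 1 from 10 reads and 0 when matched by identifier. The octamer share was 21.4% in the 150 bases before the start. Length scaling moved the highest subunit in 3 complexes, leaving 5. Without Rrm2, an alternative chosen after seeing the data like length scaling of shares, the summed level was 3943 CPM and the intact share 80.8%. Complete models alone moved 7 single levels down by more than 1.5 times, and length scaling moved 30 down and 2 up. The log2 ratios of 5 genes near 0 changed sign with the setting, with no call in any. Pcna had -0.04 with annotated-gene totals and 0.01 with TMM, Rfc5 -0.03 and 0.03, and Pold4 -0.03 and 0.02, while on complete models alone Orc6 had 0.14 in place of -0.08 and Pole2 -0.03 in place of 0.16. No paired analysis was possible because the series has a single group. Depth limits Orc1, Pola1 and Pole, whose levels rest on 5, 8 and 9 reads.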
